A study of Rattus norvegicus with 44 samples.

Results

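The genes described here are those of the unfolded protein response and the heat shock response: 33 genes listed by symbol, covering chaperones of the endoplasmic reticulum (ER), the cytosol and mitochondria, the transcription factors of the unfolded protein response, and targets of the integrated stress response. An entry carrying the symbol was found for 32 of the 33 among 28906 distinct gene symbols in the table of kidney expression values, and all 32 were tested. No entry carried the symbol Hspa1a. It is a near-identical copy of Hspa1b, so the values listed for Hspa1b may include its reads, and Hspa1a on its own was not analysed here.

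RNA came from a piece of the right kidney of 44 male obese ZSF1 rats, a hybrid of diabetic fatty and hypertensive heart failure strains that carries leptin receptor mutations and develops diabetic kidney disease. All animals, controls included, carried a telemetry device and took their treatment in the feed for 6 months from 22 weeks of age. The groups were Vehicle (11 animals), Enalapril, an inhibitor of angiotensin-converting enzyme (9 animals), Compound 1, a stimulator of soluble guanylyl cyclase (12 animals), and Enalapril + Compound 1, here the combination (12 animals). The dose of Compound 1 was raised during the study in the group that received it alone, so that it differed from the dose in the combination, and no lean or untreated rat is among these samples. Values are FPKM, the fragments counted per kilobase of transcript and scaled for library size, so that levels can be set against each other between genes.

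Proteins that enter the ER are folded by resident chaperones such as BiP, the product of Hspa5. When unfolded protein accumulates there, membrane sensors activate the transcription factors XBP1, ATF6 and ATF4, which raise the production of chaperones and of the machinery that removes misfolded protein. ATF4 is also made when other stresses, such as lack of amino acids, slow protein synthesis, and it then induces genes of amino acid supply and of cell death. In the cytosol the factor HSF1 plays the corresponding part and induces the heat shock proteins. In the kidney, the small heat shock proteins are abundant in the medulla, where salt and urea concentrations are high.

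The promoters of several members hold elements to which these factors are known to bind, and a few are shown so that the values can be read beside them. A RefSeq window on build GRCr8, from 250 bases before to 50 bases after the annotated start, was found by symbol for 27 of the 33 genes. The ER stress element, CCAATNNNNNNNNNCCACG on either strand, was present in the windows of 7 members (Calr, Canx, Creld2, Dnajc3, Hsp90b1, Hspa5 and Xbp1) and in 0.0657% of all 33469 windows. The C/EBP-ATF response element, TGATGNAA on either strand, was present in Chac1, Herpud1 and Trib3 and in 3.98% of all windows. The heat shock element, made of the units GAA, TTC and GAA with NN between neighbours and searched on both strands, was present in Hspa8, Hspd1, Hspe1 and Hsph1 and in 0.798% of all windows. The element TGACGTGG, on either strand, was present in Bag3 alone among the members and in 0.595% of all windows. A match describes the letters and does not show that a factor binds. In the stretches below, read 5′ to 3′ on the strand of the gene, capitals mark the element.
Chac1: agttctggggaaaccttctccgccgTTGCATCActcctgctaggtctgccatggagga
Trib3: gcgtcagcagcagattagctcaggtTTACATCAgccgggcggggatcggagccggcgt
Herpud1: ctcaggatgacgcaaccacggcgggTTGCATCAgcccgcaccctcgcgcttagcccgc
Hspa5: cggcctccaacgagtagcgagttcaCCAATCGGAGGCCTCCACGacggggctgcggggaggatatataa
Hsp90b1: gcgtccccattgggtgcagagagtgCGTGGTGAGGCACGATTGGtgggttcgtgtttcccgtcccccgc
Xbp1: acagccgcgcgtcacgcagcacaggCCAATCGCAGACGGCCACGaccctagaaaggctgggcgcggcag
Hspa8: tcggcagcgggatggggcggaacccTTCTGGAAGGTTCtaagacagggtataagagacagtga
Hspe1: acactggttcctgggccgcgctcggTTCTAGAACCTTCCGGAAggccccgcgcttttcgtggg

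These stretches lie at chr3:126795939-126795996 on the plus strand for Chac1, chr3:161275522-161275579 on the minus strand for Trib3 and chr19:10614859-10614916 on the minus strand for Herpud1. Those with the ER stress element lie at chr3:38452948-38453016 on the plus strand for Hspa5, chr7:23012322-23012390 on the minus strand for Hsp90b1 and chr14:84604533-84604601 on the plus strand for Xbp1. Those with the heat shock element lie at chr8:50080434-50080496 for Hspa8 and chr9:64084237-64084299 for Hspe1, both on the plus strand. The element began 167 bases before the start of Chac1, 21 before that of Trib3, 184 before that of Herpud1 and 43 before that of Hspa5. In Hspe1 overlapping matches on the same stretch are capitalised together.

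In Vehicle kidneys the level of the members spanned from 1.09 ± 0.350 FPKM (SD, n = 11) for Chac1 to 553 ± 58.5 for Hsp90ab1, the constitutive cytosolic HSP90. Calr, a lectin chaperone of the ER, followed at 381 ± 27.8 FPKM and Pdia3, a disulfide isomerase that works with it, at 231 ± 34.1. The mitochondrial chaperonins Hspe1, at 193 ± 16.02, and Hspd1, at 190 ± 27.3, lay within each other's spread, as did the ER chaperones Hsp90b1 (GRP94), at 154 ± 24.2, and Hspa5 (BiP), at 147 ± 26.0. The inducible Hspa1b stood at 20.2 ± 5.74 FPKM, below the constitutive Hspa8 at 46.4 ± 8.59. Trib3, at 1.26 ± 0.274, and Chac1 were the only members under 10 FPKM in their Vehicle mean.

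**Figure D1:**
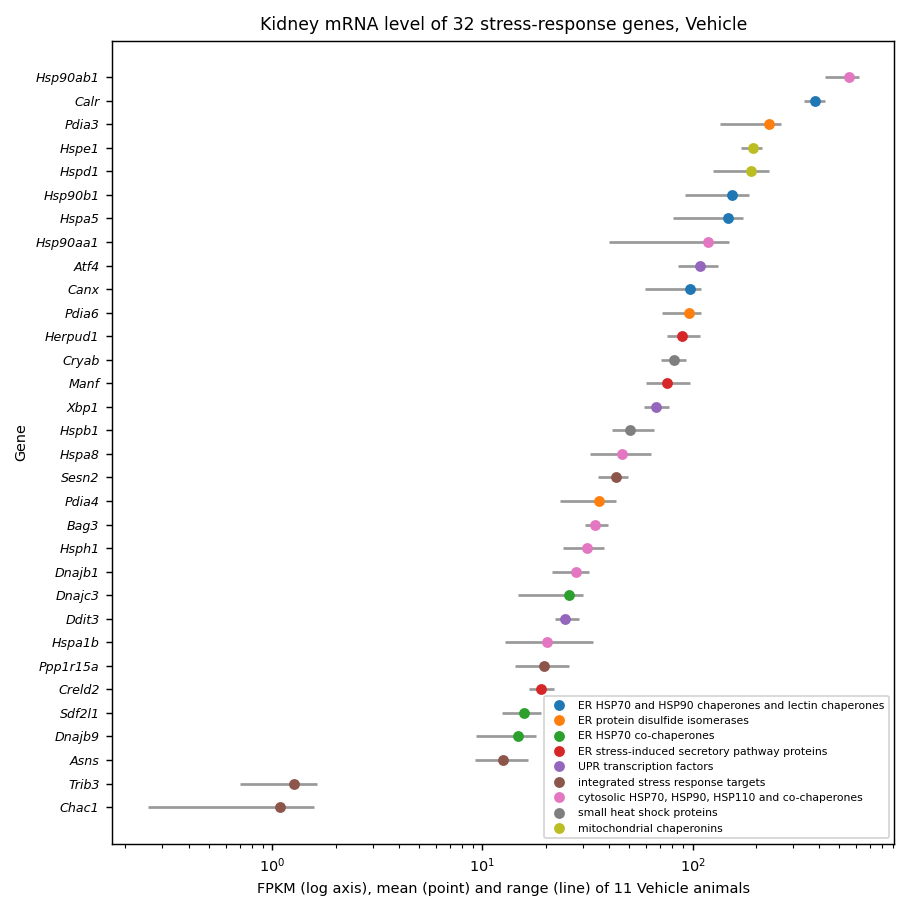
Mean FPKM (points, colored by role) and range (lines) of each of 32 genes over the 11 Vehicle animals, on a log axis. Hsp90ab1 and Calr lie at the top with 553 and 381 FPKM, and Trib3 and Chac1 lie apart at the bottom with 1.26 and 1.09 FPKM.

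Animals of one group differed little in most members. The SD of log2(FPKM + 0.1) within groups had a median of 0.195 over the 32 members and 0.238 over all 13482 tested genes, those with FPKM above 1 in at least 9 animals. Xbp1, the transcription factor whose mRNA is spliced when the ER is stressed, was the steadiest member with an SD of 0.103, and 1.88% of tested genes had a smaller one. Chac1 had the widest spread, 0.566, and Trib3 the next, 0.429. The splicing of Xbp1 itself cannot be read from these gene-level values.

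A single animal of each group stood low in the ER chaperones. Animal 1004 had the lowest level among Vehicle animals for 10 of the 13 ER members, animal 2010 among Enalapril animals for 8, animal 3105 among Compound 1 animals for 9 and animal 4007 among combination animals for 9. Over all tested genes the same animals were the lowest of their group for 30.5%, 16.1%, 16% and 37.3% of genes. Hspa5, for example, was at 80.3 FPKM in animal 1004, where the Vehicle median was 152, and at 96.2 FPKM in animal 4007, where the combination median was 138. The part of RNA quality or of the piece of kidney taken in these low values was not tested.

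**Figure D2:**
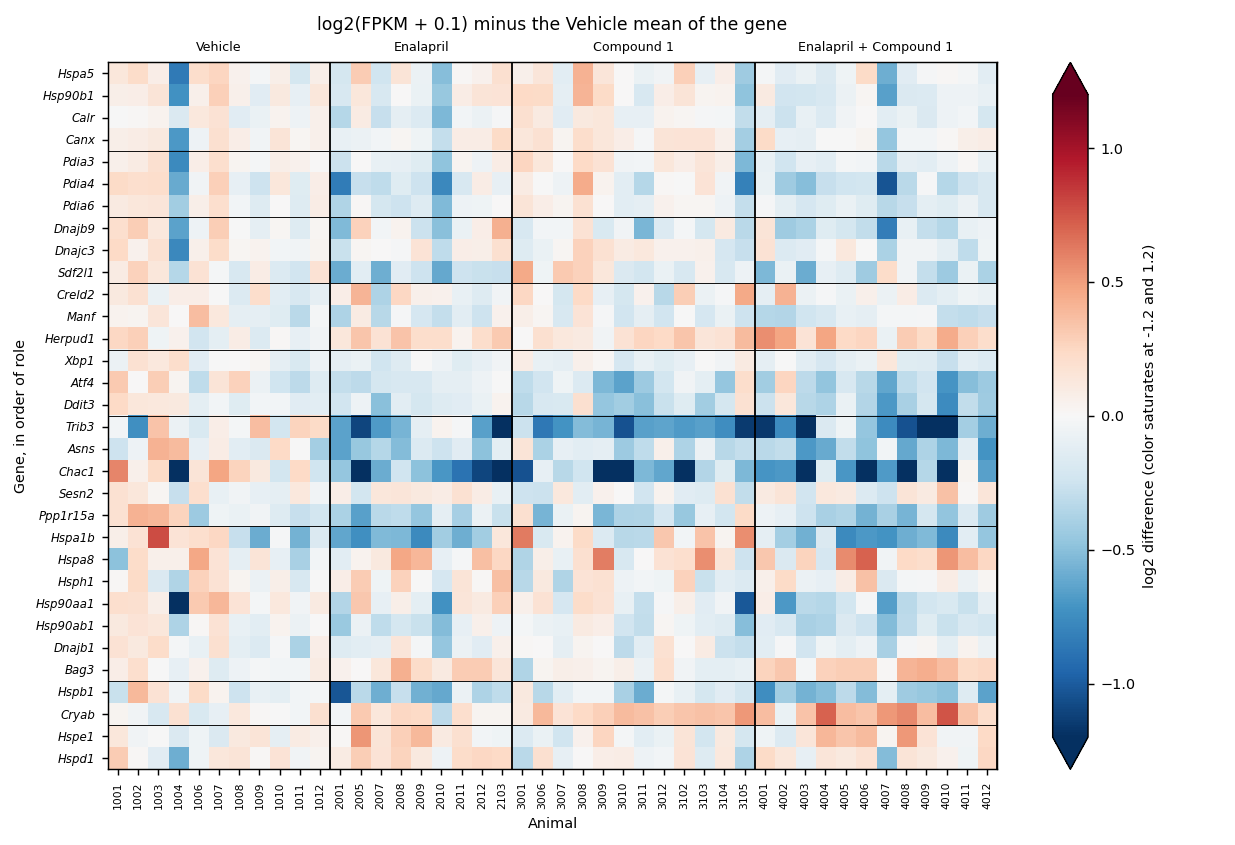
Difference of log2(FPKM + 0.1) from the Vehicle mean for 32 genes (rows, in order of role, lines between roles) in 44 animals (columns, by group), with color saturating at both ends of its scale. The ER chaperone rows are near white except in single animals such as 1004 and 4007, the Trib3 and Chac1 rows are blue in most treated animals, and the Cryab row is red in most animals given Compound 1 or the combination.

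The comparisons with Vehicle ask which of these genes each treatment changed, each on the 2 groups compared and with limma across all 13482 genes. The 3 comparisons share the Vehicle animals and so are not independent of each other. A gene is said to rise or fall at an adjusted p under 0.05 by the Benjamini-Hochberg method, and is called a differentially expressed gene (DEG) where its fold change was in addition above 1.5 or under 0.66. The median of all genes was itself shifted against Vehicle, by -0.15, -0.07 and -0.18 on the log2 scale for Enalapril, Compound 1 and the combination. The numbers of members that rose or fell with each treatment are therefore also given after rescaling each library by the median of its ratios to the average library. DEG counts beside them are given as deposited.

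With Enalapril, 10 of the 32 members passed, 2 of them higher and 8 lower, where 3.57% of all tested genes were higher and 26.6% lower. After rescaling, 8 members were higher and 2 lower, where 10.8% of all genes were higher and 9.39% lower. The members' median log2 fold change was -0.10, beside -0.15 for all genes. A single member was a DEG, Chac1, and 4.53% of all genes were DEGs. With the mean of 5 inner medulla genes as a covariate the number that passed fell from 10 to 1, which was Chac1, and the share of all genes past the test from 30.2% to 4.25%.

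With Compound 1, 2 of 32 members passed, Cryab higher and Trib3 lower, where 0.134% of all genes were higher and 0.341% lower. After rescaling the same split, 1 higher and 1 lower, was found beside 0.371% and 0.304% of all genes. The members' median log2 fold change was -0.04, beside -0.07 for all genes. Trib3 was the only DEG among the members, and 0.2% of all genes were DEGs. With the inner medulla covariate 6 members passed, 1 higher and 5 lower, while the share of all genes rose from 0.475% to 12.3%, and without animals 3102 to 3105 only Cryab passed.

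With the combination, 18 of 32 members passed, 3 higher and 15 lower, where 6.38% of all genes were higher and 39.3% lower. After rescaling, 8 members were higher and 6 lower, where 16.9% and 14.8% of all genes were. The members' median log2 fold change was -0.13, beside -0.18 for all genes. The DEGs among the members were Trib3 and Chac1, and 7.38% of all genes were DEGs. Without Vehicle animal 1004 the number that passed was 23, and the share of all genes rose from 45.6% to 48.8%.

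**Figure D3:**
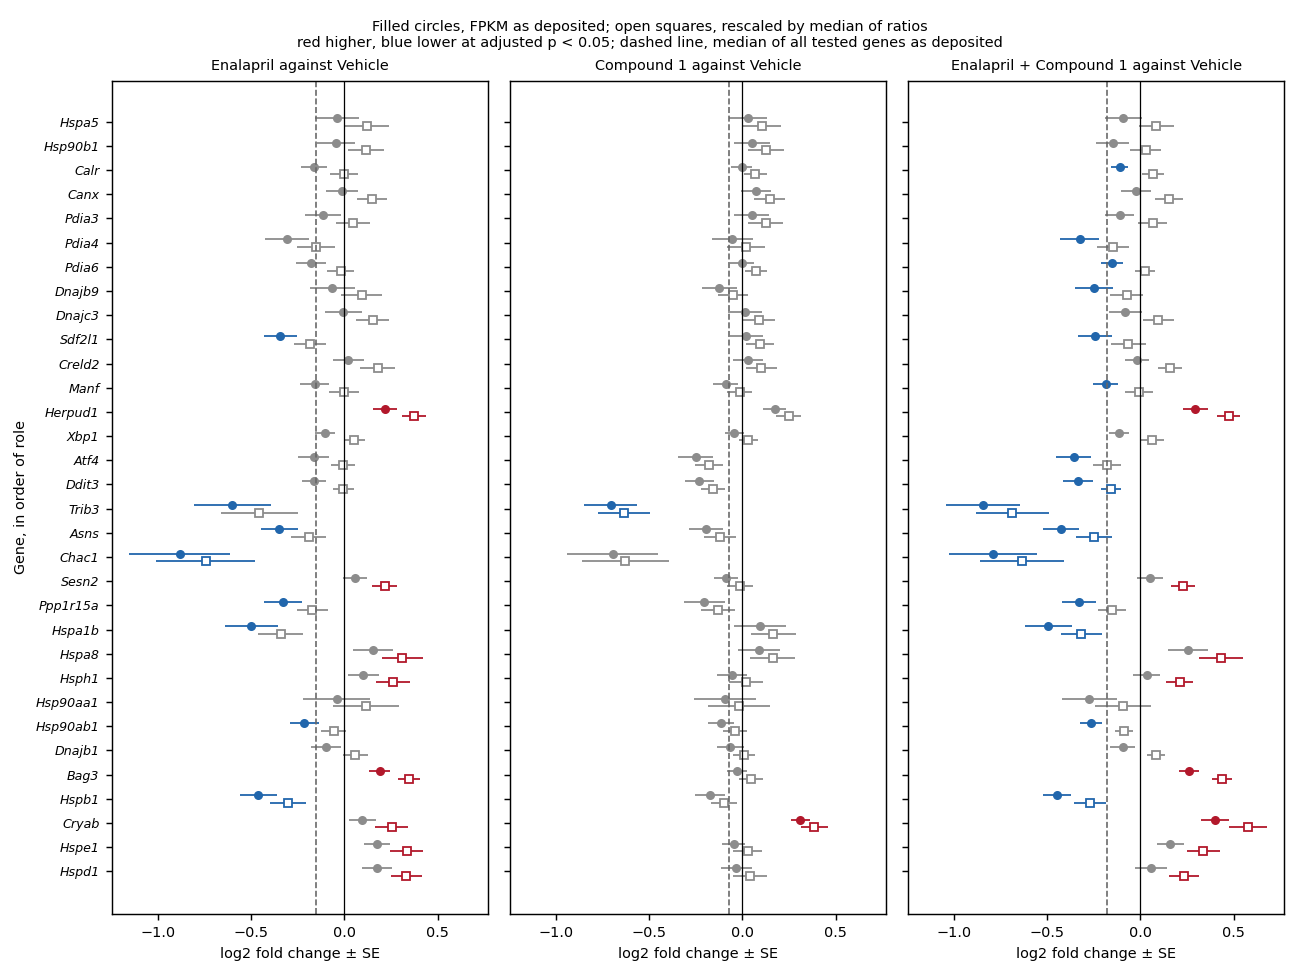
Log2 fold change against Vehicle with its SE for 32 genes in order of role, one panel for each treatment, from FPKM as deposited (filled circles) and after rescaling (open squares); red and blue mark genes higher and lower at an adjusted p under 0.05. The dashed line is the median of all tested genes, at -0.15, -0.07 and -0.18. Chac1 and Trib3 lie farthest to the left, and Herpud1, Bag3 and Cryab lie to the right of 0 with the combination on both scales.

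Among the ER chaperones, none of the 4 HSP70, HSP90 and lectin chaperones passed with Enalapril or Compound 1. With the combination Calr alone fell, where 39.3% of all genes did. With Enalapril Calr passed in 1 of 20 fits that each left out 1 animal. Calr ran from 337 to 428 FPKM with a median of 384 in Vehicle, from 262 to 408 with a median of 353 with Enalapril, from 309 to 436 with a median of 381 with Compound 1, and from 318 to 382 with a median of 355 with the combination. The groups overlapped, and no combination animal exceeded the Vehicle median. The log2 fold change was -0.11 ± 0.045 (SE, limma adjusted p = 0.0473), but it was 0.07 after rescaling (adjusted p = 0.424), and it no longer passed in 16 of 23 fits that each left out 1 animal, with an adjusted p of up to 0.0960. For Hspa5 the values in the order Enalapril, Compound 1 and combination were -0.04 ± 0.119, 0.03 ± 0.104 and -0.09 ± 0.099. In the same order Hsp90b1 stood at -0.04, 0.05 and -0.15 and Canx, the membrane-bound lectin chaperone, at -0.01, 0.07 and -0.02, none of which passed. With the combination, Hspa5 and Hsp90b1 passed once Vehicle animal 1004 was left out, at -0.18 (adjusted p = 0.0379) and -0.22 (adjusted p = 0.00955). Each passed in 1 of 23 fits without 1 animal, and in others the adjusted p reached 0.699 and 0.319. The fit without animal 1004 takes out the low animal of Vehicle and keeps that of the combination, animal 4007. With all animals neither gene passed after rescaling.

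Of the 3 disulfide isomerases, which form and rearrange the disulfide bonds of proteins in the ER, none passed with Enalapril or Compound 1 and 2 fell with the combination. Of all genes 39.3% fell with the combination. Pdia4 ran from 23.3 to 43.1 FPKM with a median of 37.4 in Vehicle, from 19.7 to 37.7 with a median of 29.7 with Enalapril, from 20.1 to 48.2 with a median of 35.3 with Compound 1, and from 17.2 to 35.0 with a median of 29.5 with the combination. All 12 combination animals lay below the Vehicle median, within the range of Vehicle except for 1 below it. Its log2 fold change was -0.33 ± 0.1035 with the combination (adjusted p = 0.0132), and -0.15 after rescaling (adjusted p = 0.199). Pdia6 fell by 0.15 ± 0.060 with the combination (adjusted p = 0.0403), a call lost in 14 of 23 fits without 1 animal, and stood at 0.03 after rescaling (adjusted p = 0.743). Pdia3 did not pass with all animals, at log2 fold changes of -0.11, 0.05 and -0.11, but without animal 1004 it passed with Enalapril (-0.19, adjusted p = 0.0245) and with the combination (-0.19, adjusted p = 0.00131). Pdia3 passed in no other fit without 1 animal, with an adjusted p of up to 0.610 with Enalapril and 0.371 with the combination. Without animal 1004 Pdia4 and Pdia6 passed with Enalapril too, at -0.37 (adjusted p = 0.0114) and -0.22 (adjusted p = 0.0205). For Pdia6 that was 1 of 20 such fits. Pdia4 with Enalapril lay near the threshold with all animals (adjusted p = 0.0508) and passed in 4 of 20 fits without 1 animal.

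Of the 3 co-chaperones of the ER, 1 fell with Enalapril, none passed with Compound 1 and 2 fell with the combination, and none passed after rescaling. Of all genes 26.6% fell with Enalapril and 39.3% with the combination as deposited. Sdf2l1, part of a chaperone complex that keeps proteins from aggregating in the ER, ran from 12.4 to 19.0 FPKM with a median of 16.7 in Vehicle, from 10.2 to 14.3 with a median of 13.1 with Enalapril, from 13.5 to 21.6 with a median of 15.1 with Compound 1, and from 10.3 to 18.3 with a median of 13.5 with the combination. None of the 9 Enalapril animals reached the Vehicle median and 3 lay below every Vehicle animal. Its log2 fold change was -0.34 ± 0.088 with Enalapril (adjusted p = 0.00643) and -0.24 ± 0.091 with the combination (adjusted p = 0.0319), and neither passed after rescaling (-0.19, adjusted p = 0.134, and -0.06, adjusted p = 0.639). The call with the combination was lost in 10 of 23 fits without 1 animal. Dnajb9, which hands unfolded proteins to BiP, fell by 0.25 ± 0.101 with the combination (adjusted p = 0.0456), a call that was lost after rescaling (-0.07, adjusted p = 0.570) and in 15 of 23 fits without 1 animal. Dnajc3, a BiP co-chaperone, passed in no comparison with Vehicle when all animals were included, at -0.01, 0.01 and -0.08, and passed with the combination without animal 1004 (-0.16, adjusted p = 0.0331). It passed with the combination in no other fit without 1 animal, with an adjusted p of up to 0.636.

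Herpud1, a membrane protein that organises the removal of misfolded proteins from the ER, was the ER member that rose. It ran from 75.6 to 108 FPKM with a median of 86.2 in Vehicle, from 91.2 to 112 with a median of 102 with Enalapril, from 86.1 to 115 with a median of 99.996 with Compound 1, and from 83.8 to 131 with a median of 107 with the combination. All 9 Enalapril animals and 11 of 12 animals in each of the other treated groups lay above the Vehicle median, and 5 combination animals lay above the highest Vehicle animal. Herpud1 rose by 0.22 ± 0.064 with Enalapril (adjusted p = 0.0144) and 0.30 ± 0.069 with the combination (adjusted p = 0.00160), and after rescaling 0.38 and 0.47 (adjusted p = 9.89e-04 and 1.07e-05). With Compound 1 it was 0.17 ± 0.0605, which did not pass (adjusted p = 0.218). Manf, a secreted factor induced by ER stress, fell by 0.19 ± 0.065 with the combination (adjusted p = 0.0228) but stood at -0.01 after rescaling (adjusted p = 0.944). Creld2, another secreted protein of this kind, did not pass, at 0.02, 0.03 and -0.02.

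The transcription factors of the unfolded protein response did not pass with Enalapril or Compound 1 with all animals. With the combination 2 of 3 fell, where 39.3% of all genes did. Atf4, the factor shared with the integrated stress response, ran from 85.7 to 133 FPKM with a median of 107 in Vehicle, from 85.8 to 106 with a median of 93.4 with Enalapril, from 68.4 to 124 with a median of 91.5 with Compound 1, and from 65.3 to 128 with a median of 82.4 with the combination. In the combination 7 of 12 animals lay below the lowest Vehicle animal, while animal 4002 was the only one above the Vehicle median. Its log2 fold change with the combination was -0.36 ± 0.095 (adjusted p = 0.00425), and -0.18 after rescaling, which did not pass (adjusted p = 0.0666). ATF4 protein is set largely by translation, which mRNA levels do not report.

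Ddit3, which encodes the pro-apoptotic factor CHOP and lies downstream of ATF4, ran from 22.2 to 28.9 FPKM with a median of 24.0 in Vehicle, from 17.3 to 25.2 with a median of 22.2 with Enalapril, from 17.3 to 28.0 with a median of 20.7 with Compound 1, and from 14.5 to 27.0 with a median of 19.3 with the combination. Below the lowest Vehicle animal lay 4 of 9 Enalapril animals, 10 of 12 Compound 1 animals and 10 of 12 combination animals. With the combination the log2 fold change was -0.33 ± 0.080 (adjusted p = 0.00183), and -0.16 after rescaling (adjusted p = 0.0330). With Compound 1 it was -0.23 ± 0.0775, which did not pass (adjusted p = 0.193). With Enalapril Ddit3 passed in 1 of 20 fits that each left out 1 animal. Xbp1 stood at -0.10, -0.04 and -0.11 and did not pass with all animals. With the combination Xbp1 passed without animal 1011 (-0.13, adjusted p = 0.0420) or without animal 4007 (-0.14, adjusted p = 0.0264).

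The largest differences of the 32 members were those of Chac1 and Trib3, both targets of the integrated stress response. Of the 5 targets listed, 4 fell with Enalapril, 1 fell with Compound 1 and 4 fell with the combination. Of all genes 26.6%, 0.341% and 39.3% fell in the same order. After rescaling 1 fell and 1 rose with Enalapril, 1 fell with Compound 1, and 3 fell and 1 rose with the combination. Of all genes 9.39%, 0.304% and 14.8% then fell, and 10.8%, 0.371% and 16.9% rose. Chac1 and Trib3 are among the 5, and their low levels carry a condition given below. Both count among the 4 that fell with Enalapril and with the combination, the others being Asns and Ppp1r15a. Hspa1b and Hspb1, which are not in this list, fell by more than Asns and Ppp1r15a in both comparisons.

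Chac1, whose product breaks down glutathione and which ATF4 and CHOP induce, ran from 0.255 to 1.57 FPKM with a median of 1.14 in Vehicle, from 0.140 to 0.846 with a median of 0.589 with Enalapril, from 0.195 to 0.943 with a median of 0.668 with Compound 1, and from 0.237 to 1.04 with a median of 0.589 with the combination. No treated animal reached the Vehicle median, and the ranges overlapped below it, where 3 Vehicle animals lay under 1 FPKM, animal 1004 the lowest of them. Chac1 had a log2 fold change of -0.88 ± 0.270 with Enalapril (adjusted p = 0.0180) and -0.79 ± 0.238 with the combination (adjusted p = 0.00958). With Compound 1 it was -0.69 ± 0.244, which did not pass (adjusted p = 0.226). After rescaling the values were -0.74 (adjusted p = 0.0497), -0.63 (adjusted p = 0.0347) and -0.63 (adjusted p = 0.313) in the order Enalapril, combination, Compound 1. Without the 6 animals that stand at the end of the deposited series, apart from the others of their groups, the Enalapril difference no longer passed (adjusted p = 0.107), and without animal 1004 the Compound 1 difference did (-0.86, adjusted p = 0.0439).

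Trib3, a pseudokinase induced by ATF4 and CHOP, ran from 0.701 to 1.62 FPKM with a median of 1.22 in Vehicle, from 0.316 to 1.28 with a median of 0.758 with Enalapril, from 0.504 to 1.02 with a median of 0.742 with Compound 1, and from 0.318 to 1.19 with a median of 0.691 with the combination. No animal given Compound 1 or the combination reached the Vehicle median, and 4 and 7 of them lay below the lowest Vehicle animal. The log2 fold change was -0.70 ± 0.143 with Compound 1 (adjusted p = 0.0146) and -0.85 ± 0.198 with the combination (adjusted p = 0.00164), and both passed after rescaling (adjusted p = 0.0255 and 0.009455). With Enalapril it was -0.60 ± 0.205 (adjusted p = 0.0312), a difference that did not pass after rescaling (adjusted p = 0.125), without Vehicle animal 1003, or without Enalapril animals 2103 or 2005 (adjusted p of up to 0.0629). The Compound 1 difference did not pass without animals 3102 to 3105 or with all 4 groups in the fit (adjusted p of up to 0.0776).

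These values of Chac1 and Trib3 are low and carry a condition. Chac1 exceeded 1 FPKM in 8 Vehicle animals, 1 combination animal and no other, so that it met the filter of 9 animals through the group in which it was high. Trib3 exceeded 1 FPKM in 10 Vehicle, 3 Enalapril, 1 Compound 1 and 2 combination animals. A gene that enters a test in this way is selected for being lower in the other groups. The DEG counts of 1, 1 and 2 rest on such genes and are no independent support for a fall. Without any filter on level the DEG counts were also 1, 1 and 2. Fold changes on the log2(FPKM + 0.1) scale understate the change of genes at such levels, and with a pseudocount of 1 none of the members was a DEG in any of these 3 comparisons.

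Asns, which makes asparagine and is a target of ATF4, ran from 9.24 to 16.4 FPKM with a median of 11.8 in Vehicle, from 7.85 to 11.3 with a median of 9.69 with Enalapril, from 9.06 to 13.7 with a median of 10.7 with Compound 1, and from 7.46 to 12.02 with a median of 9.13 with the combination. All 9 Enalapril animals and 11 of 12 combination animals lay below the Vehicle median. Asns had log2 fold changes of -0.35 ± 0.1001 with Enalapril (adjusted p = 0.0126) and -0.42 ± 0.097 with the combination (adjusted p = 0.00131), and after rescaling the combination alone passed (-0.25, adjusted p = 0.0482, against -0.19, adjusted p = 0.163). Ppp1r15a, which restores protein synthesis by bringing a phosphatase to eIF2alpha, ran from 14.3 to 26.0 FPKM with a median of 18.6 in Vehicle, from 12.3 to 18.4 with a median of 15.4 with Enalapril, from 13.1 to 22.8 with a median of 16.7 with Compound 1, and from 13.0 to 18.6 with a median of 14.9 with the combination. None of the animals given Enalapril, alone or in the combination, exceeded the Vehicle median. The log2 fold change was -0.33 ± 0.102 with Enalapril (adjusted p = 0.0189) and -0.33 ± 0.092 with the combination (adjusted p = 0.00597), and neither passed after rescaling (-0.17, adjusted p = 0.150, and -0.15, adjusted p = 0.129). Sesn2, a stress-induced inhibitor of the growth kinase complex mTORC1, stood at 0.06, -0.09 and 0.05 as deposited, with none passing, and rose after rescaling with Enalapril (0.22, adjusted p = 0.0237) and the combination (0.23, adjusted p = 0.00928).

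**Figure D4:**
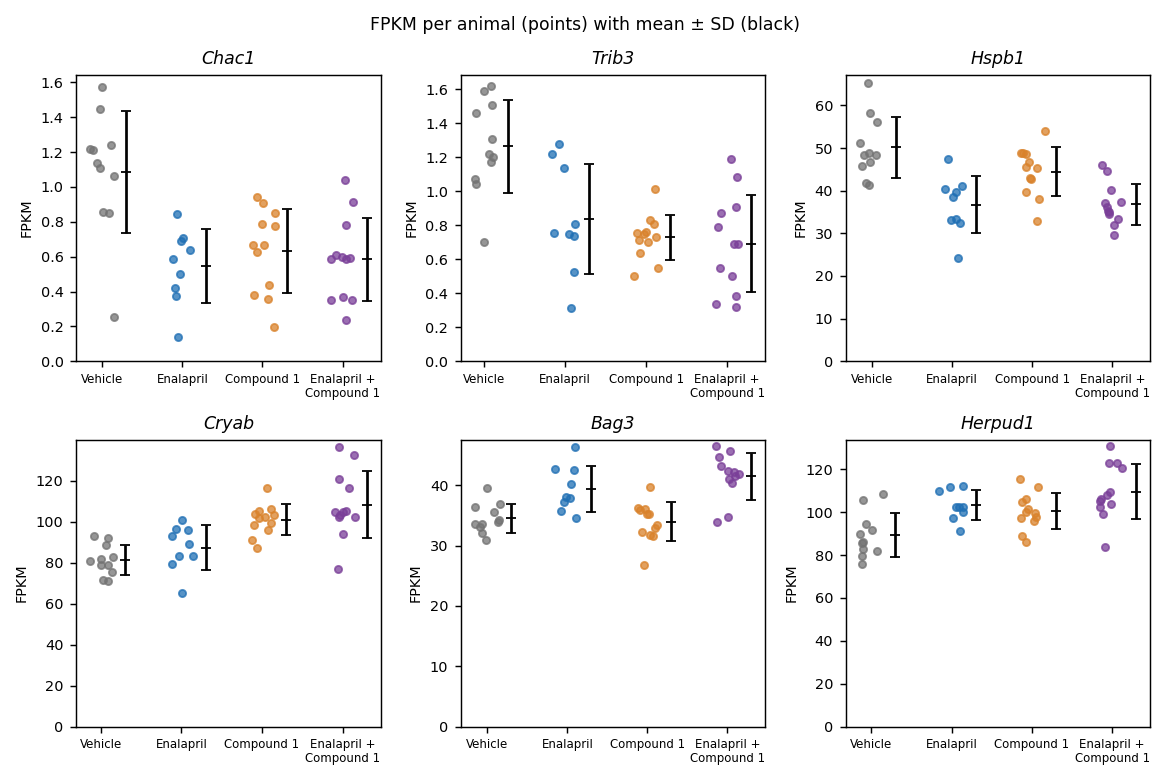
FPKM of 6 genes, a point for each animal, by group, with black bars for the mean and SD and axes that start at 0. For Chac1 no treated animal reaches the Vehicle median of 1.14, for Hspb1 10 of 12 combination animals lie below every Vehicle animal, and for Cryab 11 of 12 combination animals lie above every Vehicle animal.

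In the cytosolic group of HSP70, HSP90, HSP110 and their co-chaperones, 7 genes had an entry. With Enalapril 1 rose and 2 fell, with Compound 1 none passed, and with the combination 1 rose and 2 fell. Of all genes 3.57% rose and 26.6% fell with Enalapril, and 6.38% rose and 39.3% fell with the combination. After rescaling 3 rose and none fell with Enalapril, and 3 rose and 1 fell with the combination. Of all genes 10.8% then rose and 9.39% fell with Enalapril, and 16.9% rose and 14.8% fell with the combination.

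Hspa1b, the HSP70 that heat shock and other stresses induce, ran from 12.8 to 33.6 FPKM with a median of 20.5 in Vehicle, from 11.4 to 21.4 with a median of 13.4 with Enalapril, from 15.4 to 30.1 with a median of 20.005 with Compound 1, and from 11.5 to 18.1 with a median of 13.2 with the combination. No combination animal and 1 Enalapril animal lay above the Vehicle median, whereas the Compound 1 animals lay within the Vehicle range. Hspa1b had log2 fold changes of -0.50 ± 0.142 with Enalapril (adjusted p = 0.0119) and -0.49 ± 0.126 with the combination (adjusted p = 0.00309). After rescaling it was -0.34 with Enalapril, which did not pass (adjusted p = 0.0515), and -0.32 with the combination, which did (adjusted p = 0.0311). With Compound 1 it was 0.09 ± 0.140 (adjusted p = 0.788).

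Bag3, a co-chaperone that links HSP70 and the small heat shock proteins to autophagy, ran from 30.8 to 39.5 FPKM with a median of 33.8 in Vehicle, from 34.5 to 46.4 with a median of 38.0 with Enalapril, from 26.8 to 39.6 with a median of 34.3 with Compound 1, and from 33.8 to 46.5 with a median of 42.0 with the combination. Every animal given Enalapril, alone or in the combination, lay above the Vehicle median, and 10 of 12 combination animals lay above the highest Vehicle animal. Bag3 rose by 0.19 ± 0.058 with Enalapril (adjusted p = 0.0176) and by 0.26 ± 0.055 with the combination (adjusted p = 6.60e-04), and stood at -0.03 ± 0.055 with Compound 1 (adjusted p = 0.846). After rescaling it was 0.35 with Enalapril and 0.44 with the combination (adjusted p = 9.24e-04 and 7.04e-06).

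Hsp90ab1 ran from 426 to 618 FPKM with a median of 556 in Vehicle, from 383 to 574 with a median of 474 with Enalapril, from 387 to 592 with a median of 520 with Compound 1, and from 382 to 501 with a median of 468 with the combination. No combination animal reached the Vehicle median, and 3 lay below the lowest Vehicle animal. Its log2 fold change was -0.21 ± 0.078 with Enalapril (adjusted p = 0.0412) and -0.26 ± 0.060 with the combination (adjusted p = 0.00131), and neither passed after rescaling (-0.06, adjusted p = 0.624, and -0.09, adjusted p = 0.192). The call with Enalapril was lost in 12 of 20 fits without 1 animal. Hspa8, the constitutive HSP70, had log2 fold changes of 0.15, 0.09 and 0.26 and Hsph1, an HSP110 that releases nucleotide from HSP70, of 0.10, -0.06 and 0.03, none passing as deposited. Both rose after rescaling with Enalapril (0.31, adjusted p = 0.0471, and 0.26, adjusted p = 0.0453) and with the combination (0.43, adjusted p = 0.00751, and 0.21, adjusted p = 0.0283). As deposited, Hspa8 with the combination had an adjusted p of 0.05605 with all animals and passed in 5 of 23 fits without 1 animal. Hsp90aa1, the inducible HSP90, stood at -0.04, -0.09 and -0.27 and Dnajb1, an HSP40, at -0.10, -0.06 and -0.10, and neither passed on either scale with all animals. Without animal 1004 Hsp90aa1 passed with the combination at -0.42 (adjusted p = 2.2e-04). It passed with the combination in no other fit without 1 animal, with an adjusted p of up to 0.224.

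The small heat shock proteins, which hold unfolding proteins in a soluble state, moved in opposite directions. Hspb1 ran from 41.4 to 65.2 FPKM with a median of 48.5 in Vehicle, from 24.3 to 47.4 with a median of 38.4 with Enalapril, from 32.9 to 54.0 with a median of 45.4 with Compound 1, and from 29.7 to 46.0 with a median of 35.8 with the combination. Below the lowest Vehicle animal lay 8 of 9 Enalapril animals and 10 of 12 combination animals. Hspb1 had log2 fold changes of -0.46 ± 0.0999 with Enalapril (adjusted p = 0.00218) and -0.45 ± 0.077 with the combination (adjusted p = 1.25e-04), and both passed after rescaling (-0.30, adjusted p = 0.0289, and -0.27, adjusted p = 0.0179). With Compound 1 it was -0.17 ± 0.079 and did not pass (adjusted p = 0.352).

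Cryab, αB-crystallin, ran from 71.0 to 92.9 FPKM with a median of 81.0 in Vehicle, from 65.4 to 101 with a median of 89.0 with Enalapril, from 87.4 to 116 with a median of 102 with Compound 1, and from 76.7 to 136 with a median of 105 with the combination. Above the highest Vehicle animal lay 4 of 9 Enalapril animals, 10 of 12 Compound 1 animals and 11 of 12 combination animals. Cryab rose by 0.31 ± 0.053 with Compound 1 (adjusted p = 0.00314) and 0.40 ± 0.075 with the combination (adjusted p = 2.45e-04), and 0.39 and 0.58 after rescaling (adjusted p = 0.00918 and 1.53e-04). It passed in every one of the 23 fits without 1 animal in both comparisons, with an adjusted p of up to 0.00888 with Compound 1. With Enalapril it was 0.10 ± 0.072 (adjusted p = 0.306), and 0.26 after rescaling, which passed (adjusted p = 0.0456).

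The mitochondrial chaperonins did not pass as deposited in the comparisons with Vehicle when all animals were included. Hspe1, the lid of the chaperonin that folds proteins in the mitochondrial matrix, ran from 171 to 214 FPKM with a median of 192 in Vehicle, from 186 to 278 with a median of 215 with Enalapril, from 164 to 231 with a median of 183 with Compound 1, and from 172 to 276 with a median of 215 with the combination. Above the highest Vehicle animal lay 5 of 9 Enalapril animals and 6 of 12 combination animals. The log2 fold change was 0.18 ± 0.071 with Enalapril (adjusted p = 0.0639) and 0.16 ± 0.072 with the combination (adjusted p = 0.0718). In fits without 1 animal Hspe1 passed in 2 of 20 with Enalapril and in 2 of 23 with the combination. After rescaling Hspe1 rose by 0.33 with Enalapril (adjusted p = 0.0114) and by 0.34 with the combination (adjusted p = 0.00538), and Hspd1, the barrel of the chaperonin, by 0.33 (adjusted p = 0.00772) and 0.24 (adjusted p = 0.0281).

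The calls were also counted by promoter element. With all animals, of the 7 genes with an ER stress element none passed with Enalapril or Compound 1. With the combination 1, Calr, fell, where 39.3% of all genes did, and none passed in the 3 comparisons after rescaling. Hspa5, Hsp90b1 and Dnajc3 joined Calr without animal 1004, and Xbp1 passed without animal 1011 or 4007, as given above. The log2 fold changes of the 7 genes with the combination lay between -0.15 and -0.02 as deposited and between 0.03 and 0.16 after rescaling. Of the 4 genes with a heat shock element none passed against Vehicle as deposited, and all 4 rose after rescaling with Enalapril and with the combination, where 10.8% and 16.9% of all genes were higher, with medians of 0.32 and 0.29. Hspd1 and Hspe1 each held overlapping matches on both strands. Whether their windows share the same stretch was not examined, so the 4 may not be separate elements. The 3 genes with a C/EBP-ATF response element differed among themselves, Chac1 and Trib3 being lower and Herpud1 higher with the combination on both scales. These counts describe members with a known window and were not tested.

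Adding Compound 1 to Enalapril was examined by setting the combination against Enalapril in the fit of all 4 groups. None of the 32 members passed, where 0.0519% of all genes did and 0.00742% were DEGs. At an unadjusted p under 0.05 there were 2 members as deposited and 3 after rescaling, beside 10.4% and 13.4% of all genes, and with sample weights 1 member and 0.645% of all genes passed at the adjusted p. Cryab had the smallest p, at a log2 difference of 0.30 ± 0.074 (unadjusted p = 1.56e-04, adjusted p = 0.111), and Atf4 followed at -0.19 ± 0.095 (adjusted p = 0.4755). The differences of all members lay between -0.25, for Trib3, and 0.30, for Cryab, and the lack of a call does not show that the groups were alike.

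Adding Enalapril to Compound 1 was examined by setting the combination against Compound 1, although the dose of Compound 1 differed between them. Of 32 members 6 passed, 2 higher and 4 lower, where 4.72% of all genes were higher and 17.4% lower, and none was a DEG, where 2.33% of all genes were. After rescaling 4 were higher and 1 lower, where 20.1% of all genes passed, and with the inner medulla covariate 1 was higher and 1 lower, where 3.37% did. Hspa1b fell by 0.59 ± 0.123 (adjusted p = 0.00129) and by 0.48 after rescaling (adjusted p = 0.00157), and Bag3 rose by 0.29 ± 0.055 (adjusted p = 6.30e-04) and by 0.39 after rescaling (adjusted p = 4.0e-05). Hspe1 rose by 0.21 ± 0.071 (adjusted p = 0.0340) and by 0.31 after rescaling (adjusted p = 0.0118). Hspb1, Sdf2l1 and Asns fell by 0.27, 0.26 and 0.23 (adjusted p = 0.0174, 0.0277 and 0.0494), and none of these 3 passed after rescaling. The interaction of the treatments was past the threshold for none of the members and for 0.00742% of all genes. At an unadjusted p under 0.05 there was 1 member beside 4.29% of all genes, Chac1, at an interaction of 0.79 ± 0.350 on the log2 scale (adjusted p = 0.986).

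Whether members vary together across animals was examined on log2(FPKM + 0.1) minus the mean of each group, for 7 pairs over 44 animals, with two-sided permutation tests of 100000 resamples within groups and p adjusted over the 7 pairs. Hspa5 and Hsp90b1 followed each other closely, with Pearson r = 0.92 and Spearman rho = 0.83 (permutation p = 1e-05 for each, the smallest these resamples can give, adjusted p = 7e-05). Without the 2 animals farthest in Hspa5 r was 0.87, after rescaling 0.92, without the 6 animals at the end of the series 0.93, and within the groups it lay between 0.89 and 0.95. Hspd1 and Hspe1 were related more loosely (r = 0.39, permutation p = 0.0073, adjusted p = 0.017; rho = 0.39, adjusted p = 0.0216), with r = 0.36 without the 2 farthest animals and 0.54 after rescaling. Hspa1b and Dnajb1 had r = 0.45 (permutation p = 0.0045, adjusted p = 0.0156) and rho = 0.46 (adjusted p = 0.014), with r = 0.38 without the 2 farthest animals. This relation depended on the scale, since r was 0.15 after rescaling.

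Other pairs showed no relation that passed. Hspa5 and Sdf2l1 had r = 0.24 (permutation p = 0.113, adjusted p = 0.198) and rho = 0.29 (adjusted p = 0.118), with r = 0.70 among Vehicle, 0.89 among Enalapril, 0.13 among Compound 1 and -0.69 among combination animals. In the combination animal 4007 had the lowest Hspa5, 96.2 FPKM, and the highest Sdf2l1, 18.3 FPKM. Hspa5 and Hspa1b had r = 0.02 (permutation p = 0.917), Atf4 and Trib3 had r = 0.01 (permutation p = 0.932), and Hspb1 and Cryab had r = -0.04 (permutation p = 0.791), each with an adjusted p of 0.932. For Hspb1 and Cryab r differed in sign by group, at -0.57 among Vehicle, 0.46 among Enalapril, -0.59 among Compound 1 and 0.06 among combination animals, which was not tested. Spearman rho was 0.06, 0.03 and -0.17 for these 3 pairs (adjusted p = 0.823, 0.847 and 0.421), and r without the 2 farthest animals was 0.03, 0.07 and -0.14. All values of an animal come from 1 library, so that its depth and makeup are shared by both genes of a pair.

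**Figure D5:**
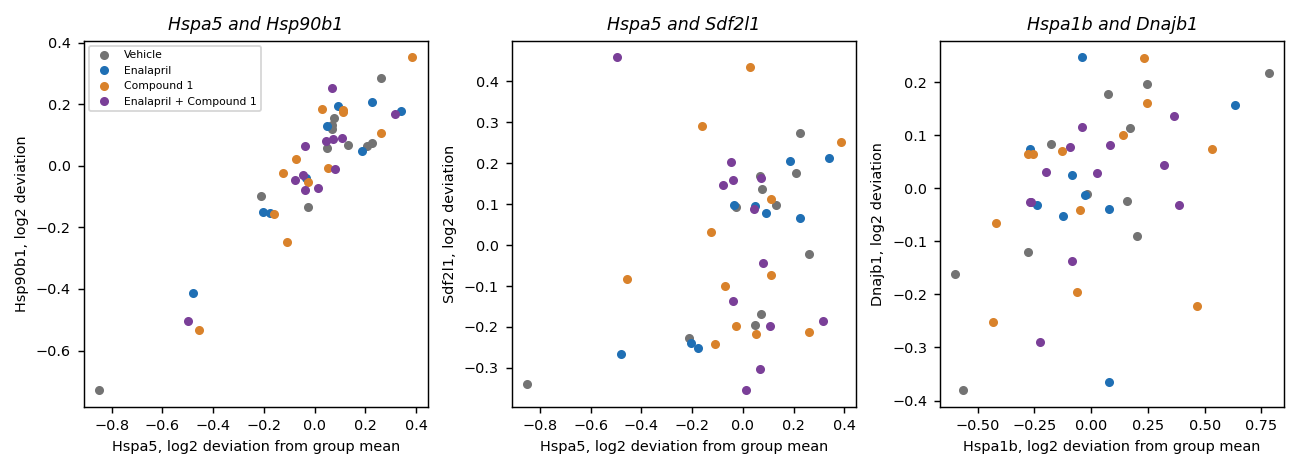
Deviation from the group mean on the log2(FPKM + 0.1) scale of one gene against another in 44 animals, colored by group, for Hspa5 with Hsp90b1, Hspa5 with Sdf2l1 and Hspa1b with Dnajb1. The first pair lies along a line (r = 0.92) with animal 1004 at its lower end, and the others are scattered (r = 0.24 and 0.45).

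Genes of the same pathways outside the 33 were counted from lists by role, 96 of 99 listed genes being tested. With Enalapril 3 rose and 24 fell, with Compound 1 none passed, and with the combination 5 rose and 37 fell, shares close to those of all genes, of which 3.57% rose and 26.6% fell with Enalapril and 6.38% rose and 39.3% fell with the combination. After rescaling the counts were 13 and 2 with Enalapril, 0 and 1 with Compound 1, and 22 and 6 with the combination. Of all genes, 10.8% rose and 9.39% fell with Enalapril after rescaling. The shares were 0.371% and 0.304% with Compound 1, and 16.9% and 14.8% with the combination. The balance of higher and lower calls thus turned with the scale, as it also did for all genes. The median log2 fold change of these 96 genes with the combination was -0.12 as deposited, beside -0.18 for all genes, and 0.06 after rescaling. In 1 of the several lists, the 8 genes of mitochondrial protein quality control, 7 rose and 1 fell with the combination after rescaling, whereas 1 rose and 1 fell as deposited. The shares of all genes on both scales are those given above. The other lists enter only the totals, so this list cannot be ranked among them, and no list was tested as a set.

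The 3 DEGs among these 96 genes were all in the combination and all from the list of other integrated stress response genes. Mthfd2, a mitochondrial enzyme of folate metabolism and a target of ATF4, ran from 1.70 to 2.92 FPKM with a median of 2.39 in Vehicle, and from 0.946 to 1.58 with a median of 1.35 with the combination. All 12 combination animals lay below the lowest Vehicle animal. Mthfd2 fell by 0.77 ± 0.112 with the combination (adjusted p = 2.9e-05), and with Enalapril by 0.49 ± 0.1475 (adjusted p = 0.0170). After rescaling its fall with the combination was 0.60 (adjusted p = 4.9e-05), past the test but not the fold threshold, and that with Enalapril did not pass (adjusted p = 0.0741). Atf3, a stress-induced transcription factor, had a median of 15.0 FPKM in Vehicle and 8.31 with the combination, 8 of whose 12 animals lay below the lowest Vehicle animal. Atf3 fell by 0.92 ± 0.193 with the combination (adjusted p = 6.77e-04), and by 0.74 after rescaling (adjusted p = 0.00212). The remaining DEG was Stc2, a secreted glycoprotein, which rose and is named after its value was seen, at 0.65 ± 0.212 with the combination (adjusted p = 0.0160), from low levels of 0.870 ± 0.388 FPKM (n = 11) to 1.39 ± 0.471 (n = 12).

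Some lists of cell type and injury genes also differed between the groups, and others differed little. Values are from bulk tissue, in which fewer cells of a type and less RNA per cell cannot be told apart. As deposited, 26.6% of all genes fell and 3.57% rose with Enalapril, and 39.3% fell and 6.38% rose with the combination. Of 7 tested genes of tubular injury 5 fell with Enalapril, none passed with Compound 1 and 6 fell with the combination, and the summed level of the 8 listed ranged from 4097 to 9149 FPKM in Vehicle, 2501 to 4148 with Enalapril, 2972 to 9494 with Compound 1 and 2162 to 4134 with the combination. All 6 macrophage genes fell with Enalapril and with the combination, with sums of 281 to 571 FPKM in Vehicle, 201 to 307 with Enalapril, 239 to 524 with Compound 1 and 203 to 338 with the combination. Of 6 fibroblast and matrix genes 5 and 6 fell, of 5 lymphocyte genes 4 and 5, and of 4 plasma cell genes 2 and 1, in the order Enalapril and combination. Of 7 proximal tubule genes 5 rose with Enalapril and 5 with the combination, with sums of 1294 to 2246 FPKM in Vehicle, 2102 to 2613 with Enalapril, 1000 to 2334 with Compound 1 and 1979 to 2743 with the combination. After rescaling, in the same order, 5 and 4 tubular injury, 6 and 6 macrophage, 3 and 3 fibroblast, 4 and 3 lymphocyte and 1 and 1 plasma cell genes fell, and 6 and 6 proximal tubule genes rose. Of all genes, 9.39% and 14.8% then fell, and 10.8% and 16.9% rose. Other lists had these mean log2(FPKM + 0.1) values as deposited, in the order Vehicle, Enalapril, Compound 1, combination. Collecting duct genes had 4.883, 4.823, 4.920 and 4.884, and endothelial genes 4.175, 4.104, 4.176 and 4.134. Thick ascending limb and distal tubule genes had 4.961, 4.906, 5.105 and 5.035. Podocyte genes had 3.750, 3.903, 3.748 and 3.903, and smooth muscle genes 4.439, 4.177, 4.691 and 4.424.

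The inner medulla and osmolyte genes, of which 1 of 5 fell with Enalapril and with the combination, had sums of 81.4 to 171 FPKM in Vehicle, 63.7 to 107 with Enalapril, 84.3 to 161 with Compound 1 and 75.8 to 160 with the combination. After rescaling none passed with Enalapril and 1 rose with Compound 1 and with the combination. No listed marker was at 0 in all animals. Transcripts of 13 mitochondrially encoded genes took between 19.8% and 43.3% of FPKM per library, with group means of 27.5% for Vehicle, 32.8% for Enalapril, 30.2% for Compound 1 and 32.1% for the combination. Depth relative to the median library, estimated from the ratios of low values, ranged from 0.613 to 1.44. The part of cell makeup, mitochondrial share and depth in the differences of the stress-response genes was not tested, beyond the rescaling and the inner medulla covariate given above.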

How the data were processed

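Poly-A selected, stranded libraries were sequenced from 44 animals. The authors' deposited table gives FPKM for 32883 entries, with rat build rn6 named in the submitters' processing notes. The aligner and counter were not given in the sources used here. FPKM are not counts, so no count model was run. The 2 columns without values were left out, and for a repeated symbol the entry of highest mean was taken. Members, lists and motifs were chosen with earlier results of these data known, and the stretches with the C/EBP-ATF response element were added after values were seen.

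Values were tested as log2(FPKM + 0.1) with limma 3.58.1 in R 4.3.3 (trended variance, FPKM above 1 in at least 9 animals, Benjamini-Hochberg adjustment over 13482 genes), each treatment with Vehicle alone, and the combination against single treatments and the interaction in 1 fit of all 4 groups. The test was checked on simulated data. Named with values in every group were DEGs, up to 12 other members past the threshold of largest log2 fold change, and 1 per role without any. Named pathway genes were up to 2 DEGs per list of smallest adjusted p. A planned pair with Hspa1a was not run. Alternatives were another pseudocount (1 or 0.01), filter (none or 5 FPKM) or scaling (median of ratios, quantile, without mitochondrial transcripts), no fold threshold, sample weights, all groups in the fit, an inner medulla covariate, and leaving out animals. The table gives no read totals, so no counting interval is given. Replicates are separate animals, and no libraries held identical values. Promoters come from RefSeq on GRCr8, a build other than that of the table. Permutations ran in SciPy 1.17.1.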

Additional observations from a re-analysis of the deposited data

Results flagged for a closer look

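Among the 9 Enalapril animals, the only group screened for a single distant animal, Hspa1b stood apart in animal 2103 at 21.4 FPKM, with the next animal at 14.6 FPKM and a gap of 0.684 of the group's range. No other of the 32 members had such an animal in this group. Low animals of the other groups, such as animal 1004, are described above and were not screened in this way. Chance gives one in about 1 of 20 groups for each member examined, so 1 flag among 32 members is no more than chance gives. The fall of Hspa1b with Enalapril passed in each of 20 fits that left out 1 animal, animal 2103 included, with an adjusted p of up to 0.0258 (limma).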

How the results depend on the processing

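The calls with the combination for Herpud1, Bag3, Cryab, Ddit3, Hspa1b, Hspb1, Trib3 and Chac1 passed in every alternative in which they were tested, and Cryab did so with Compound 1. The number of DEGs among the members with Enalapril, 1, was 0 with a pseudocount of 1, with a filter at 5 FPKM and without the 6 animals at the end of the series, 2 with a pseudocount of 0.01 and 10 with no fold threshold. With Compound 1 it was 1, and became 0 with a pseudocount of 1, the filter at 5 FPKM, all 4 groups in the fit or without animals 2103 and 3102 to 3105, and 2 with no fold threshold. With the combination it was 2, and became 0 with a pseudocount of 1, the filter at 5 FPKM or quantile normalization, and 18 with no fold threshold, while the combination against Compound 1 went from 0 to 6 with none. The filter at 5 FPKM leaves out Trib3 and Chac1. Members past the test went from 10 to 1 with Enalapril and from 2 to 6 with Compound 1 under the inner medulla covariate, and with Compound 1 to 1 under the filter at 5 FPKM, all 4 groups in the fit or without animals 2103 and 3102 to 3105; for these the cause was not tested. With quantile scaling 12 members passed with the combination, where 29.7% of all genes did, beside 18 as deposited. Those 12 need not all be among the 18. After rescaling by the median of ratios, an alternative whose combination with no fold threshold was chosen after seeing the data, Calr and Pdia6 turned to 0.068 and 0.026 with the combination, and r turned to -0.20 for Hspa5 with Hspa1b, -0.10 for Atf4 with Trib3 and 0.20 for Hspb1 with Cryab (-0.14 without the 2 farthest animals), and moved to 0.15 for Hspa1b with Dnajb1 and 0.54 for Hspd1 with Hspe1. Leaving out 1 animal at a time gave 1 to 2 DEGs with Enalapril, 1 to 2 with Compound 1 (2 without animal 1004), 2 with the combination and 0 to 1 against Compound 1, and 8 to 13, 2 to 3 and 14 to 23 members past the test in the comparisons with Vehicle. No paired analysis was possible because each animal belongs to 1 group and groups share no animal numbers. Precision is limited by 9 to 12 animals a group and, for Trib3 and Chac1, by levels near 1 FPKM.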
